A study of Mus musculus with 24 samples.

Results

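The enzymes that turn membrane arachidonic acid into leukotrienes and prostanoids were followed in cultured mouse eosinophils through 9 genes, Pla2g4a, Alox5, Alox5ap, Lta4h, Ltc4s, Alox15, Ptgs1, Ptgs2 and Hpgds. They were taken by symbol from the 25746 genes of the count files, and all 9 matched an Ensembl identifier and passed the low-count filter that left 11885 genes for testing. C57BL/6 bone marrow was driven to eosinophils, first by FLT3 ligand and stem cell factor, 100 ng/ml of each (day 0 to day 4), and afterwards by IL-5 at 10 ng/ml. Dead cells were removed on day 13, and an overnight culture in IL-5, with or without a further cytokine, preceded the sequencing of polyadenylated RNA. All 24 libraries therefore come from cells held in IL-5, the untreated ones included. Wild-type cells were untreated, given GM-CSF at 20 ng/ml, given IL-10, whose dose the labels do not state, or given both cytokines. Cells labelled Csf2ra-/- and cells labelled Irf5-/- were untreated or given GM-CSF. Each of the 8 groups held 3 libraries. The labels speak of triplicates and do not say whether these were separate animals or cultures, so the p-values measure the spread between these libraries, which may be technical.

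Cytosolic phospholipase A2, the product of Pla2g4a, frees arachidonic acid from membranes. 5-lipoxygenase (Alox5), helped by its activating protein (Alox5ap), makes leukotriene A4, which Lta4h turns into leukotriene B4, an attractant of granulocytes, and Ltc4s joins to glutathione to give leukotriene C4, the parent of the cysteinyl leukotrienes for which eosinophils are known. 12/15-lipoxygenase (Alox15) makes hydroxy fatty acids and is abundant in eosinophils. The cyclooxygenases, the constitutive Ptgs1 and the inducible Ptgs2, make prostaglandin H2, from which the hematopoietic synthase Hpgds makes prostaglandin D2.

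Total counts ran from 6222979 to 18709153 per library. Eosinophil markers were high in all libraries, with Epx at 13510 to 20760 CPM and Prg2 at 39120 to 65200 CPM. CPM, the depth-scaled count used for every level below, includes TMM scaling factors (the trimmed-mean method of edgeR). The libraries labelled Irf5-/- held more Irf5 RNA than the others, at 1393 to 1999 CPM against 28.3 to 94.3 CPM. RNA level alone does not tell whether the label is right, which was not tested. They are called "the libraries labelled Irf5-/-" below. Csf2ra RNA was lower but not absent in the Csf2ra-/- libraries, at 28.5 to 39.8 CPM against 41.7 to 83.8 CPM. Untreated Csf2ra-/- libraries were the least alike, with Pearson's r of 0.96 to 0.97 over 9397 genes. The sum of 4 Y-linked genes split the libraries, at 148 to 185 CPM in 14 of them, all 6 Csf2ra-/- libraries included, and at 12.1 to 60.9 CPM in the other 10. Of the 12 wild-type libraries 6 lay on each side, and 4 of the 6 on the high side had received GM-CSF against 2 of the 6 on the low side.

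Alox15, Alox5ap, Alox5 and Lta4h were expressed far above the cyclooxygenases and Hpgds, and the levels of the 9 genes spanned more than 3 orders of magnitude. Per kilobase of exon, Alox15 was first, at 1117 ± 187 CPM per kb (mean ± SD over the 24 libraries), and it was the gene with the 23rd highest mean CPM of all. Alox5ap followed at 760 ± 83.1, Alox5 at 202 ± 27.7 and Lta4h at 118 ± 12.1 CPM per kb. Next came Ptgs1 at 25.4 ± 3.41 and Pla2g4a at 18.8 ± 2.51 CPM per kb. Ltc4s stood at 4.74 ± 1.72, Ptgs2 at 3.18 ± 1.40 and Hpgds at 0.276 ± 0.202 CPM per kb. Of neighbours in this order, Ltc4s and Ptgs2 did not differ beyond their spread, since their mean ± SD ranges overlapped. Ptgs1 and Pla2g4a changed places when the longest transcript stood in for the union of exons, at 34.4 and 34.8 CPM per kb. Ltc4s thus lay far below the other genes of the leukotriene path, with 25 to 115 counts per library, and Hpgds had 3 to 70. Antisense gene models overlap exons of Alox5ap, Ltc4s and Ptgs1, and how the counting treated strand is not given in the sources used here. Reads of those partners could thus be among the counts of these 3 genes.

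**Figure D1:**
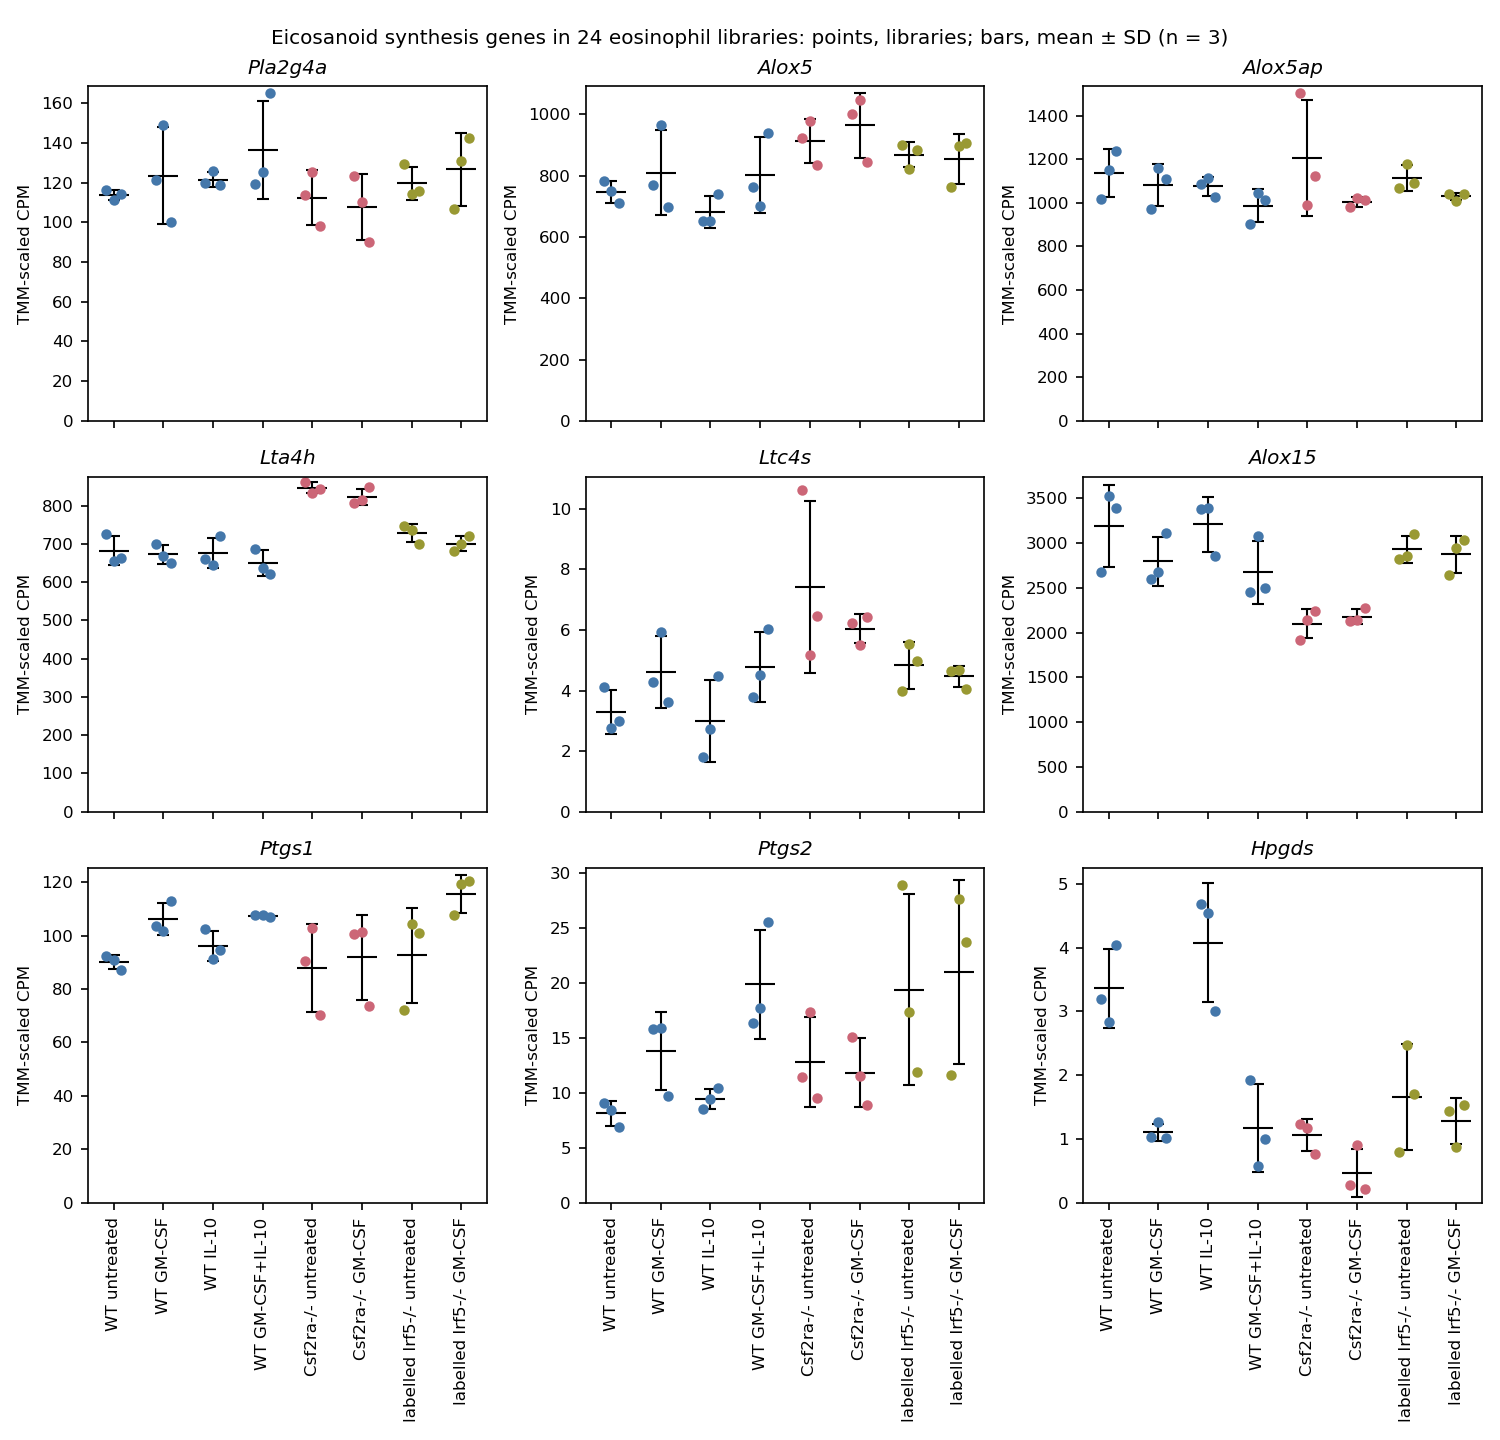
Level of each of the 9 genes (vertical axis, TMM-scaled CPM, starting at 0) in the 8 groups (horizontal axis); each point is a library and the bars are the mean ± SD of 3 libraries. Hpgds is low in both wild-type GM-CSF groups, Lta4h is high and Alox15 low in the 6 Csf2ra-/- libraries, and Alox5ap and Pla2g4a show no group set apart.

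An overall test of the 8 group means called Hpgds, Alox15, Lta4h, Ptgs2 and Ltc4s, 5 of the 9 genes, at adjusted p of 0.000219, 0.0027, 0.0029, 0.0287 and 0.0399 (edgeR quasi-likelihood F-test, Benjamini-Hochberg over all 11885 genes, threshold 0.05). Of all genes tested, 12.3% were called. Alox5 (adjusted p = 0.0871), Ptgs1 (0.231), Alox5ap (0.493) and Pla2g4a (0.615) were not. Fitted to only the 14 libraries with a high Y-linked sum, the same test called none of the 9. All adjusted p-values below come from the same edgeR model with Benjamini-Hochberg adjustment over all genes tested, unless another tool is named.

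The comparison of cells with and without GM-CSF asked how the added cytokine changed wild-type eosinophils. Hpgds fell and Ptgs2 rose, while the genes of the leukotriene path did not pass the test. RNA for the enzyme that makes prostaglandin D2 from prostaglandin H2 was thus lower and RNA for the inducible cyclooxygenase higher. Enzyme levels were not measured, and the Ptgs2 call depended on single libraries, as given below. Over the wild-type groups with and without IL-10 together, 6 libraries against 6, these were the only 2 of the 9 genes called, against 2.54% of all genes tested (1.86% higher, 0.682% lower). Without IL-10 none of the 9 was called (0.555% of all genes), though Hpgds and Ptgs2 had an unadjusted p under 0.05, and with IL-10 only Hpgds was, among the lower genes (0.858% of all genes, 0.135% lower). The median log2 fold change of the 9 genes was 0.14, against 0.00 for all genes.

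Hpgds (ENSMUSG00000029919, chr6:65117293-65144908, minus strand, GRCm38) measured 3.20, 2.84 and 4.04 CPM in the untreated wild-type libraries. IL-10 libraries held 4.68, 4.54 and 3.01 CPM. With GM-CSF it stood at 1.03, 1.26 and 1.01 CPM, and with both cytokines at 1.92, 0.582 and 0.995 CPM. The 6 libraries with GM-CSF all lay below the 6 without it. The counts behind these values were 33 to 70 without and 8 to 26 with GM-CSF. Averaged over IL-10, Hpgds fell by 1.71 ± 0.28 on the log2 scale (SE; 3.27-fold lower, adjusted p = 0.000724), and the call held without each of the 12 libraries in turn (adjusted p 0.000263 to 0.00384). In the presence of IL-10 the log2 fold change was -1.82 ± 0.40 (adjusted p = 0.0243), a call that was lost without replicate 2 or 3 of the group with both cytokines or replicate 1 or 2 of the IL-10 group (adjusted p 0.11 to 0.163), or with only these 2 groups in the fit (0.0746). In its absence the log2 fold change was -1.60 ± 0.40 with an adjusted p of 0.0841, while DESeq2 gave an adjusted p of 0.0156 and limma-voom 0.0432 for this comparison.

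Ptgs2 (ENSMUSG00000032487, chr1:150100031-150108227, plus strand) measured 9.08, 8.43 and 6.88 CPM in the untreated wild-type libraries. IL-10 libraries held 8.56, 9.42 and 10.4 CPM. With GM-CSF it was 15.8, 15.9 and 9.69 CPM, and with both cytokines 16.3, 17.7 and 25.6 CPM. Replicate 3 of the GM-CSF group fell among the libraries without GM-CSF, and the other 5 lay above all of them. Averaged over IL-10, Ptgs2 rose by 0.92 ± 0.23 (1.90-fold, adjusted p = 0.0322). The call was lost without any one of 7 libraries, namely untreated replicate 2 or 3, GM-CSF replicate 1 or 2, IL-10 replicate 1 or 2, or replicate 3 with both cytokines (adjusted p 0.079 to 0.104), with the Y-linked sum as a covariate (0.0574) or with no low-count filter (0.0697). Taken without and with IL-10, the log2 fold changes were 0.77 ± 0.33 (adjusted p = 0.681) and 1.08 ± 0.32 (0.177, and 0.0292 with only the 2 groups in the fit).

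The stretches before the start sites of these 2 genes, which GM-CSF moved in opposite directions, are shown because GM-CSF signals through STAT5, whose motif TTCNNNGAA can be looked for. Sequences come from RefSeq on GRCm38.p6, which matched 7 of the 9 genes, and only bases before both the RefSeq and the GENCODE start are given, 5′ to 3′ on the gene's strand. Capitals mark the only match to any of the 8 motifs searched, a C/EBP motif (TTGCNNAA).
Ptgs2 promoter, chr1:150099781-150100030, plus strand: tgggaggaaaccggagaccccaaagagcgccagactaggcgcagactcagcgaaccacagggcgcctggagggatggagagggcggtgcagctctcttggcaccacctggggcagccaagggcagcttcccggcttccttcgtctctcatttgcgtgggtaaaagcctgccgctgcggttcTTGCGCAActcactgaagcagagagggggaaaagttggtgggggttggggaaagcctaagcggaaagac
Hpgds promoter, chr6:65144909-65144980, minus strand: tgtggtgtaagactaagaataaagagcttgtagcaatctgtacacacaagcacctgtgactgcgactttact
Both strands were searched, and the share of the 32851 promoter windows of 250 bases in the table that held each motif is given with it. TTCNNNGAA for STAT was in 7.02%, AGATAA for the GATA family in 9.99% and TGACGT, the CRE half-site, in 6.47%. TGANTCA for AP-1 was in 6.75%, TTGCNNAA for C/EBP in 9.56%, the TATA box motif TATAAA in 12.4%, an IRF motif in 2.98% and an NF-kB motif in 3.9%. In the 7 genes' full windows, C/EBP matched once in Ptgs2 and once in Hpgds, in the latter beyond the bases shown, and the TATA box matched in 1 of the 2 Pla2g4a windows. STAT matched in none of these windows, which says only that these letters are not there.

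Some macrophage markers were also lower with GM-CSF. Of the 17 monocyte and macrophage markers tested, 4 fell and 1 rose with GM-CSF in wild type, and the list's summed level was 2676 to 2868 CPM without and 2381 to 2747 CPM with it. Across the wild-type GM-CSF comparisons, 0.555% to 2.54% of all genes were called. C1qb, a complement gene of tissue macrophages, stood at 5.16 to 19.7 CPM without GM-CSF, and at 2.63, 1.04 and 9.69 CPM with it and 4.59, 13.2 and 2.04 CPM with both cytokines. In the 2 libraries at 9.69 and 13.2 CPM of C1qb, Hpgds was 1.01 and 0.582 CPM (14 and 8 counts). It was 0.995 to 1.92 CPM in the other wild-type libraries with GM-CSF. Cd163 was under 1 CPM in all libraries. The part of such cells in the Hpgds result was not tested, and in bulk samples fewer cells of a type and less RNA per cell cannot be told apart. Within each level of the Y-linked sum Hpgds was lower and Ptgs2 higher with GM-CSF. Among high libraries Hpgds was 3.01 to 3.20 CPM without and 0.995 to 1.92 CPM with GM-CSF, and among low ones 2.84 to 4.68 and 0.582 to 1.01 CPM. Ptgs2 was 9.08 to 10.4 against 15.8 to 25.6 CPM among high libraries, and 6.88 to 9.42 against 9.69 to 17.7 CPM among low ones.

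Alox15 and Ltc4s, the other members at an unadjusted p under 0.05 in the averaged GM-CSF comparison, were not called. Ltc4s had a log2 fold change of 0.59 ± 0.20 (adjusted p = 0.141, and 0.0344 without IL-10 replicate 3) and Alox15 of -0.23 ± 0.08 (adjusted p = 0.157, and 0.0488 without untreated replicate 1). Ptgs1 was close behind, at 0.20 ± 0.10 (0.321), with 87.2 to 102.4 CPM in the 6 wild-type libraries without and 101.8 to 113.1 CPM in the 6 with GM-CSF, ranges that barely overlapped. Alox5 (0.18 ± 0.09), Pla2g4a (0.14 ± 0.10), Alox5ap (-0.10 ± 0.08) and Lta4h (-0.04 ± 0.05) were smaller still.

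**Figure D2:**
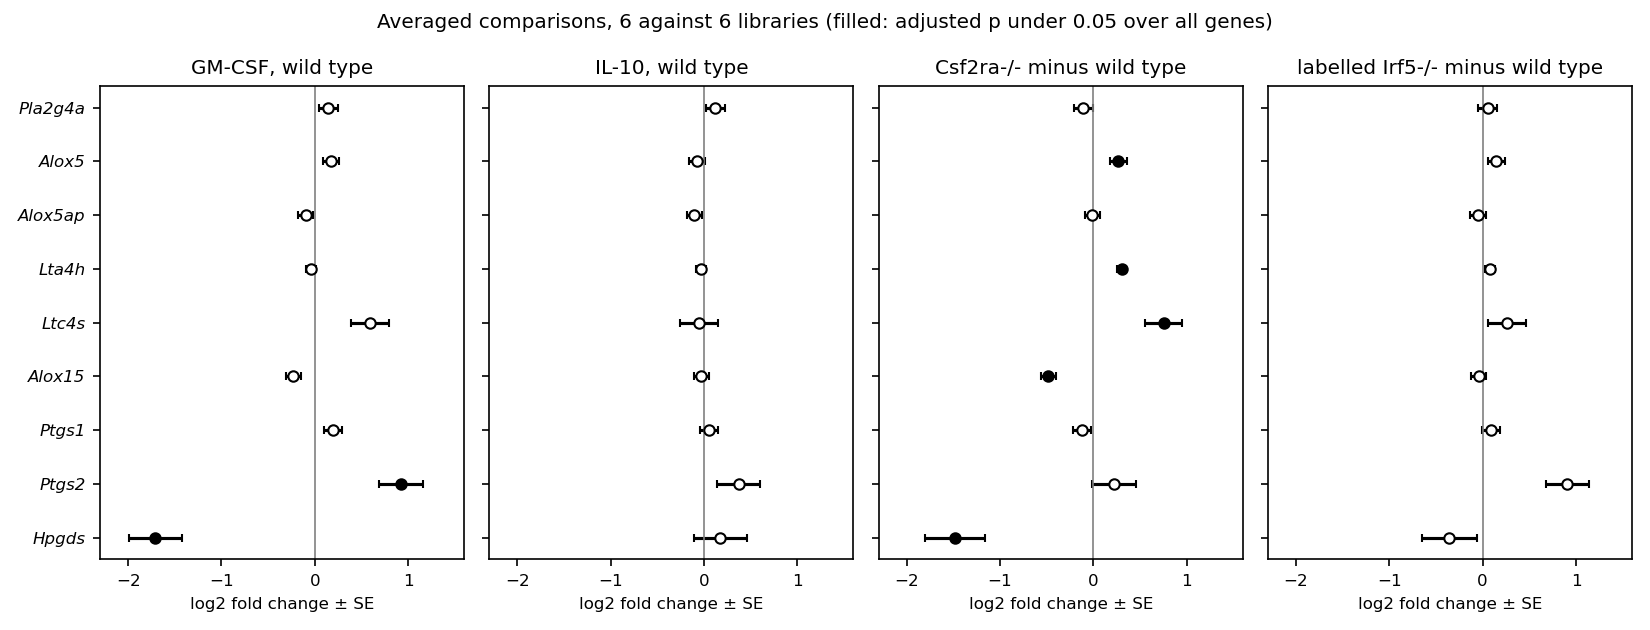
Log2 fold change ± SE (horizontal axis) of the 9 genes (vertical axis) in 4 averaged comparisons of 6 against 6 libraries; filled points have an adjusted p under 0.05 over all genes. Hpgds was lower and Ptgs2 higher with GM-CSF, 5 genes differed between Csf2ra-/- and wild type, and in the IL-10 and Irf5 panels all points are open.

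Csf2ra encodes the alpha chain of the receptor through which GM-CSF acts, and Csf2ra-/- cells were compared with wild type, whose untreated and GM-CSF libraries also serve the comparisons above. The leukotriene genes Ltc4s, Lta4h and Alox5 were higher in Csf2ra-/- cells, and Alox15 and Hpgds were lower. The Alox5 call depended on single libraries, as given below. All Csf2ra-/- libraries had a high Y-linked sum, so genotype and this sum are partly confounded. Averaged over untreated and GM-CSF groups, these were 5 of the 9 genes, 3 higher and 2 lower, against 17.1% of all genes called in this comparison (8.13% higher, 8.93% lower). In untreated cells 4 of the 9 were called, 2 each way (10.8% of all genes, 5.52% higher and 5.32% lower), and with GM-CSF Lta4h alone (3.79%, 0.909% higher). The median log2 fold change of the 9 genes was -0.01 in the averaged comparison, against 0.01 for all genes.

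Lta4h (ENSMUSG00000015889, chr10:93453411-93484875, plus strand), which makes leukotriene B4, was the steadiest of the 9 between libraries. It stood at 725, 656 and 664 CPM in untreated and at 699, 667 and 651 CPM in GM-CSF-treated wild-type libraries. Untreated Csf2ra-/- libraries held 862, 834 and 844 CPM, and GM-CSF-treated ones 808, 815 and 847 CPM. All 6 Csf2ra-/- libraries lay above all 18 others, which ran from 622 to 747 CPM. The log2 fold change was 0.30 ± 0.05 averaged over treatment (1.23-fold, adjusted p = 0.000392), 0.31 ± 0.07 untreated (0.0116) and 0.29 ± 0.07 with GM-CSF (0.0254). The averaged call held without each library in turn. The untreated call was lost without wild-type untreated replicate 2 or 3 (0.0789 and 0.0526) or with only these 2 groups in the fit (0.271), and the GM-CSF call without any one of 5 libraries, Csf2ra-/- replicates 1 to 3 and wild-type replicates 2 and 3 (0.0529 to 0.143), or with no low-count filter (0.081).

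Ltc4s (ENSMUSG00000020377, chr11:50236461-50238616, minus strand), the leukotriene C4 synthase, stood at 4.11, 2.75 and 2.99 CPM in untreated and at 4.29, 5.92 and 3.62 CPM in GM-CSF-treated wild-type libraries. Untreated Csf2ra-/- libraries held 10.6, 5.18 and 6.44 CPM, and GM-CSF-treated ones 6.21, 5.49 and 6.43 CPM. Untreated groups did not overlap, while wild-type GM-CSF replicate 2 fell within the Csf2ra-/- range. The log2 fold change was 1.12 ± 0.29 untreated (2.18-fold, adjusted p = 0.017) and 0.75 ± 0.20 averaged (0.0114). With GM-CSF it was 0.38 ± 0.27 (0.608). The untreated call was lost without Csf2ra-/- untreated replicate 1 (log2 fold change 0.82, adjusted p = 0.121) or wild-type untreated replicate 2 or 3 (0.0994 and 0.0686), and with only these 2 groups in the fit (0.125), and the averaged call held without each library in turn. That Csf2ra-/- library also had the highest Alox5ap (1506 CPM against 903 to 1238 CPM in the other 23), Prg2 (65200 CPM) and Cpa3 (374 CPM) of all.

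Alox5 (ENSMUSG00000025701, chr6:116410077-116461178, minus strand) ran from 696 to 964 CPM in the 6 untreated and GM-CSF wild-type libraries (median 759) and from 835 to 1046 CPM in the 6 Csf2ra-/- libraries (median 950). The ranges overlapped through wild-type GM-CSF replicate 2. The averaged log2 fold change was 0.27 ± 0.09 (adjusted p = 0.0374), and the call was lost without any one of 8 of the 12 libraries (adjusted p 0.0517 to 0.116). The 4 that did not decide it were Csf2ra-/- replicate 3 of both treatments, wild-type untreated replicate 1 and wild-type GM-CSF replicate 2. The call was also lost with the Y-linked sum as a covariate (log2 fold change 0.24, adjusted p = 0.0831), without the libraries labelled Irf5-/- (0.0671) and when the fit held these 4 groups alone (0.0869). In wild type Alox5 was 740.5 to 964.3 CPM in the 6 libraries with a high Y-linked sum and 650.5 to 749.5 CPM in the 6 with a low one, and all Csf2ra-/- libraries had a high sum. Its helper Alox5ap (ENSMUSG00000060063, chr5:149264767-149288153, plus strand) was not called, at -0.01 ± 0.08 (0.946). Pla2g4a (ENSMUSG00000056220, chr1:149829618-149961290, minus strand), which feeds both arms, ran from 90.2 to 165 CPM over all libraries and was not called in any comparison, with an averaged Csf2ra-/- log2 fold change of -0.11 ± 0.10 (0.508).

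Alox15 (ENSMUSG00000018924, chr11:70344152-70352031, minus strand) measured 1920, 2138 and 2237 CPM in untreated and 2125, 2136 and 2270 CPM in GM-CSF-treated Csf2ra-/- libraries. The wild-type ones held 2670, 3521 and 3386 CPM untreated, 2600, 2670 and 3107 CPM with GM-CSF, 3382, 3388 and 2852 CPM in IL-10, and 2449, 3078 and 2493 CPM in both cytokines. The 6 libraries labelled Irf5-/- ran from 2637 to 3099 CPM. The 6 Csf2ra-/- libraries were thus the 6 lowest of the 24. The log2 fold change was -0.61 ± 0.12 untreated (1.52-fold lower, adjusted p = 0.00288) and -0.48 ± 0.08 averaged (0.000347), and both calls held without each library in turn. The untreated call was lost with only these 2 groups in the fit (0.121). With GM-CSF it was -0.36 ± 0.12 and missed the threshold (0.099), which DESeq2 passed (adjusted p = 0.0448).

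Alox15 was also lower where the Y-linked sum was high, in wild type and, by a narrow gap, in the libraries labelled Irf5-/-. How many other genes split in this way was not counted. In wild type, the 6 libraries with a low sum (47.0 to 60.9 CPM) held 3078 to 3521 CPM of Alox15, and the 6 with a high sum (171 to 182 CPM) 2449 to 2852 CPM, without overlap. In the libraries labelled Irf5-/-, 4 with a low sum held 2855 to 3099 CPM and 2 with a high sum 2637 to 2825 CPM. The 6 Csf2ra-/- libraries, all with a high sum, lay below the wild-type libraries with a high sum. Among wild-type libraries with a low sum Alox15 was 3382 to 3521 CPM without and 3078 to 3107 CPM with GM-CSF, and among those with a high sum 2670 to 2852 and 2449 to 2670 CPM. As a covariate over all 24 libraries, the log2 Y-linked sum had an edgeR coefficient of -0.08 ± 0.03 for Alox15, which was not called (adjusted p = 0.968), where 0.0589% of all genes were called. With this covariate the averaged Csf2ra-/- log2 fold change was -0.42 (adjusted p = 0.000737), and among only the 14 libraries with a high sum it was -0.31 (0.294). In that fit, which leaves 1 untreated and 2 GM-CSF wild-type libraries, none of the 9 genes was called in any comparison. Several log2 fold changes stayed close to those from all 24 libraries. For Csf2ra-/- averaged over treatment Hpgds had -1.47 against -1.49 and Lta4h 0.24 against 0.30, and for GM-CSF averaged over IL-10 Ptgs2 had 0.92 in both. Others were smaller, with Alox15 at -0.31 against -0.48, Ltc4s at 0.53 against 0.75 and Alox5 at 0.19 against 0.27 for Csf2ra-/-, and Hpgds at -1.26 against -1.71 for GM-CSF.

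**Figure D3:**
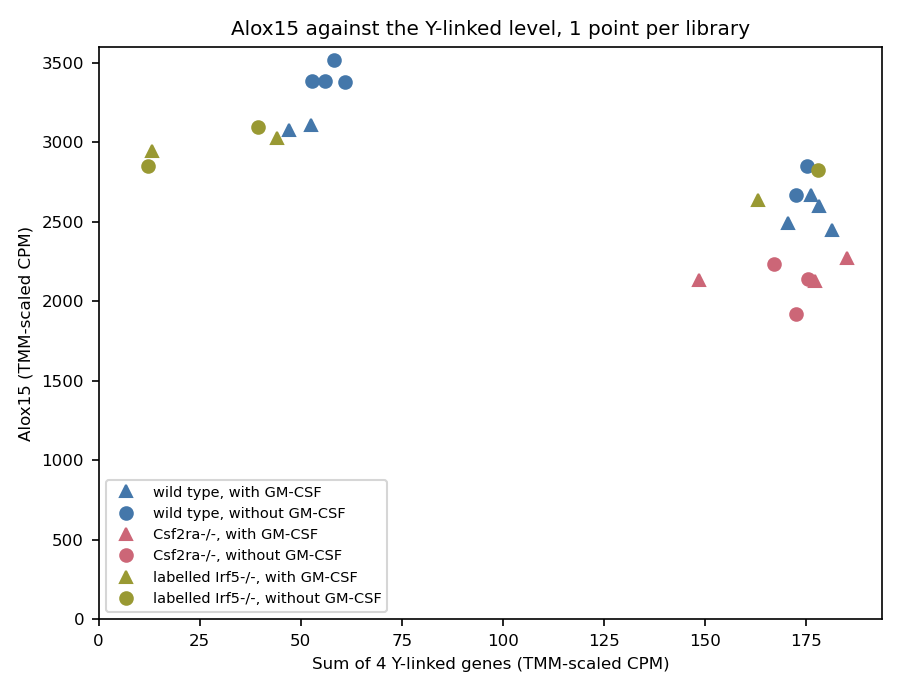
Alox15 (vertical axis, TMM-scaled CPM) against the summed level of 4 Y-linked genes (horizontal axis, TMM-scaled CPM), 1 point per library, coloured by genotype, triangles with and circles without GM-CSF. Wild-type points fall into an upper left group at 3078 to 3521 CPM and a right group at 2449 to 2852 CPM, and the 6 Csf2ra-/- points lie below both.

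Hpgds was lower in Csf2ra-/- cells too. Their untreated libraries held 1.23, 1.18 and 0.769 CPM (10 to 20 counts), and the GM-CSF-treated ones 0.27, 0.902 and 0.222 CPM (3 to 12 counts). The untreated libraries lay below the 3 untreated wild-type ones and 2 of the 3 lay within the wild-type GM-CSF range of 1.01 to 1.26 CPM, with replicate 3 below it. The log2 fold change was -1.69 ± 0.41 untreated (3.22-fold lower, adjusted p = 0.0141) and -1.49 ± 0.32 averaged (0.00306). The untreated call was lost without wild-type untreated replicate 3 (0.0591), and the averaged call held without each library in turn. With GM-CSF the log2 fold change was -1.28 ± 0.49 (0.199).

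Other cell types' markers differed between the same groups. In the comparison averaged over treatment, 17.1% of all genes were called (8.13% higher, 8.93% lower). Of 17 monocyte and macrophage markers tested, 13 were lower and none higher in Csf2ra-/- cells averaged over treatment, and C1qb was 0.532 to 1.48 CPM there. The summed level of that list overlapped, at 2113 to 2789 CPM against 2419 to 2747 CPM in untreated and GM-CSF wild type. Of 16 neutrophil markers, 10 were lower (sum 1349 to 1734 against 1803 to 2103 CPM). Of 10 mast cell and basophil markers tested, of 15 listed, 3 were higher (sum 895 to 1170 against 704 to 875 CPM), while Mcpt4, Mcpt2 and Tpsab1 had no count in any library. Of 7 megakaryocyte and platelet markers, 3 were higher and 2 lower (sum 1384 to 1620 against 1070 to 1358 CPM). Of 11 eosinophil markers, 4 were higher and 1 lower (sum 79040 to 111500 against 72200 to 78860 CPM). The part of these differences in the results for the 9 genes, and for the other pathway genes below, was not tested.

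Neither GM-CSF within Csf2ra-/- cells nor the difference between genotypes in the GM-CSF effect gave a call among the 9 genes, where 0% and 0.0589% of all genes were called. At an unadjusted p under 0.05, 2 of the 9 stood out within Csf2ra-/- cells, Hpgds at -1.19 ± 0.51 and Alox5ap at -0.26 ± 0.12 (both adjusted p = 0.999). Ptgs2 had a GM-CSF effect of -0.11 ± 0.32 in Csf2ra-/- and 0.77 ± 0.33 in wild type, and the difference of -0.88 ± 0.46 had an adjusted p of 0.843. The Hpgds effect differed by 0.40 ± 0.68 (0.955). The GM-CSF effects on Hpgds and Ptgs2 were thus not shown to depend on Csf2ra at this precision.

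IL-10 gave no call among the 9 genes. Averaged over GM-CSF, 0.345% of all genes were called and no member had an unadjusted p under 0.05. Log2 fold changes ran from -0.11 ± 0.08 for Alox5ap to 0.37 ± 0.23 for Ptgs2 (adjusted p 0.967 and 0.919). IL-10 alone and IL-10 on top of GM-CSF gave no call either, with 0.0505% of all genes called in each, and DESeq2 and limma-voom also called none of the 9 in these 3 comparisons. The difference that IL-10 made to the GM-CSF effect was at most 0.31 ± 0.46 in size, for Ptgs2 (adjusted p = 1.00), and none of the 9 had an unadjusted p under 0.05 there (0% of all genes called).

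Among the libraries labelled Irf5-/- no member was called against wild type, untreated or with GM-CSF (0.0337% of all genes in each). None was called by GM-CSF against untreated either (0.353%). Any such difference rests on libraries whose Irf5 RNA was higher than in the others, so what their label means for Irf5 function is not known here. Ptgs2 came closest. Untreated libraries held 28.9, 17.4 and 11.9 CPM and GM-CSF-treated ones 11.6, 27.7 and 23.7 CPM. All 3 untreated libraries lay above the untreated wild-type range of 6.88 to 9.08 CPM. The averaged log2 fold change was 0.91 ± 0.23 (adjusted p = 0.219, where 0.0926% of all genes were called), and in DESeq2 the adjusted p was 0.0262. Leaving out GM-CSF replicate 1 of those labelled Irf5-/- brought it to 0.039 in edgeR. In untreated cells it was 1.21 ± 0.34 (0.279), and with only these 2 groups in the fit 1.20 (0.0368). Hpgds was 0.80, 2.47 and 1.70 CPM in untreated libraries labelled Irf5-/-, below the untreated wild-type libraries, at a log2 fold change of -0.93 ± 0.39 (0.314). With GM-CSF against untreated, Ptgs1 (ENSMUSG00000047250, chr2:36230426-36252272, plus strand) had 0.32 ± 0.14 (0.778), from 72.3, 104 and 101 CPM to 108, 119 and 120 CPM. The GM-CSF effect was not shown to differ from that in wild type for any of the 9 (0% of all genes called), with Hpgds at a difference of 1.15 ± 0.59 (0.986).

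The rest of the pathway was read from 63 listed genes, of which 39 passed the low-count filter. In GM-CSF and IL-10 comparisons none of the 39 was called, and in Csf2ra-/- against wild type, averaged over treatment, 9 were called, 3 higher and 6 lower (17.1% of all genes, as above). Of the 11 receptors tested, 4 were lower and none higher, and of the 4 enzymes of eicosanoid inactivation tested, 2 were higher. These 4 receptors were at most 4.27 CPM in the libraries compared. Markers of other cell types differed between the same groups, as given above, and their part in these calls was not tested. Of the 5 leukotriene and lipoxin receptors tested, 3 fell. Cysltr1, a receptor for cysteinyl leukotrienes, was 1.75 to 4.27 CPM in the 6 untreated and GM-CSF wild-type libraries and 0.602 to 1.12 CPM in Csf2ra-/- libraries, without overlap (log2 fold change -1.76 ± 0.30, adjusted p = 0.000396). It was 0.784 to 3.37 CPM in the libraries labelled Irf5-/-, which overlaps both ranges. Fpr2, a receptor that binds lipoxin A4, had -1.03 ± 0.28 (0.013), and Cmklr1, a chemerin receptor that also binds resolvin E1, -1.31 ± 0.36 (0.0147). The leukotriene B4 receptors were not called, and Ltb4r1 was abundant at a median of 185 CPM. Of 6 prostanoid receptors tested, Ptger2, a prostaglandin E2 receptor, was called at -1.80 ± 0.35 (0.00118), from 0.588 to 1.89 CPM in wild type to 0.118 to 0.591 CPM, or 2 to 8 counts per library.

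Among the enzymes, Cbr3, a carbonyl reductase, rose by 1.08 ± 0.14 on the log2 scale (2.11-fold, adjusted p = 2.2e-05), from 10.1 to 17.0 CPM in wild type to 19.9 to 38.7 CPM. Ptgr1, which inactivates leukotriene B4 and 15-keto prostaglandins, rose by 0.66 ± 0.09 (4.74e-05), from 11.4 to 13.9 CPM to 16.9 to 25.8 CPM. Neither gene overlapped between the Csf2ra-/- and these wild-type libraries. Both overlapped with the libraries labelled Irf5-/-, which held 16.15 to 24.35 CPM of Cbr3 and 14.53 to 17.81 CPM of Ptgr1. Akr1b3, an aldose reductase with prostaglandin F synthase activity, rose by 0.38 ± 0.09 (0.00418). Dpep2, a dipeptidase that turns leukotriene D4 into E4, fell by 0.98 ± 0.19 (0.00119), from 17.5 to 26.1 CPM to 8.24 to 15.2 CPM. In the libraries labelled Irf5-/- Dpep2 was 10.08 to 29.55 CPM, which overlaps both ranges. The epidermal-type lipoxygenase Alox12e fell by 0.62 ± 0.13 (0.0019). The symbol Dpep2 belongs to several Ensembl identifiers of the count files, and only the lowest, ENSMUSG00000053687, was read. All 9 calls held without each of the 12 libraries in turn, while Cmklr1 was lost when the fit held these 4 groups alone. Among only the 14 libraries with a high Y-linked sum, Cbr3 and Cysltr1 were still called and the other 7 were not.

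**Figure D4:**
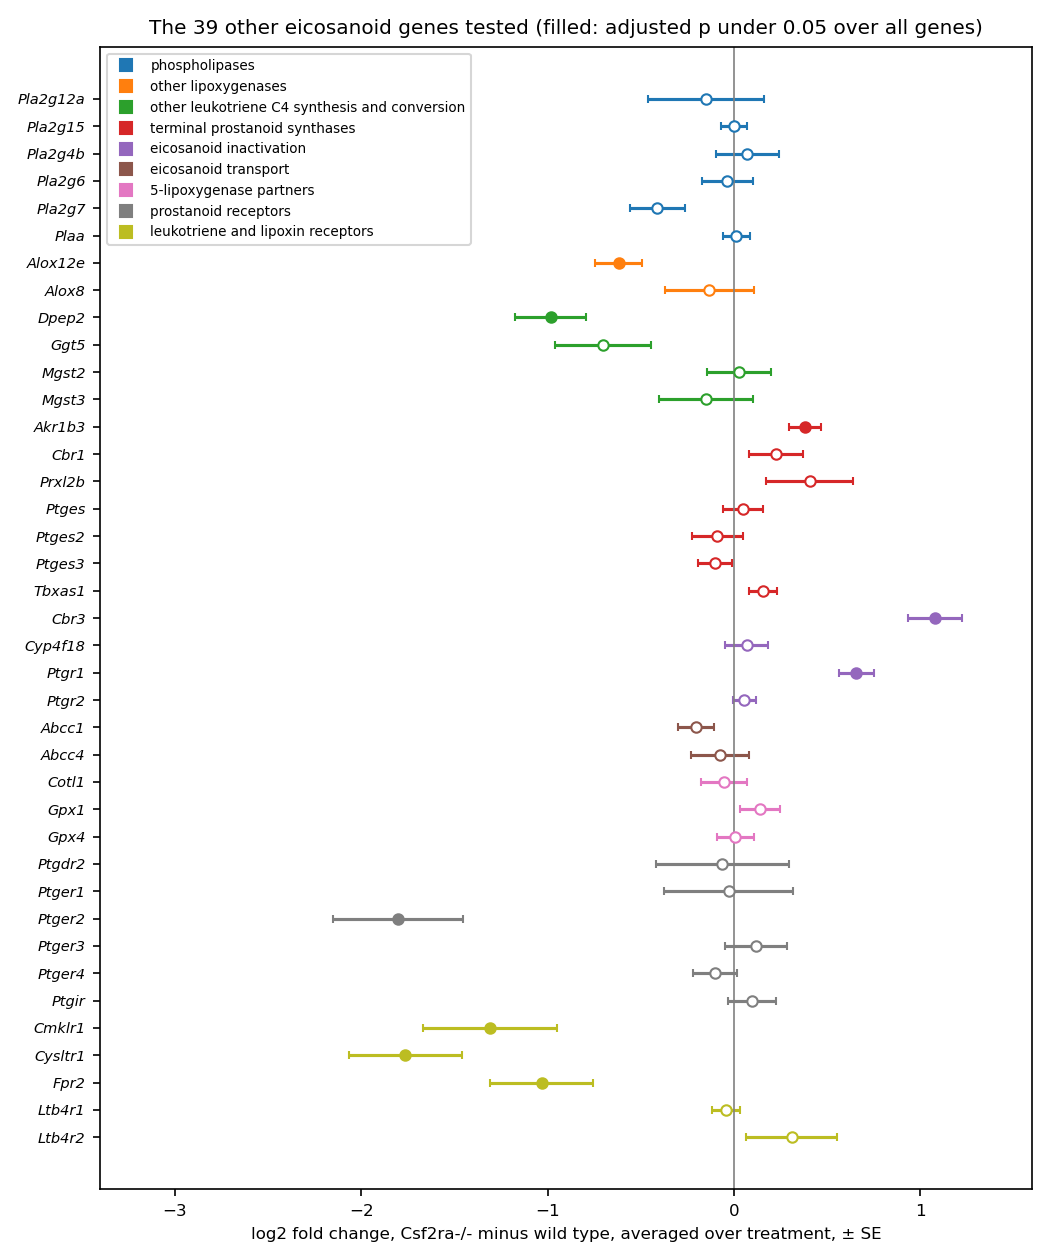
Log2 fold change ± SE (horizontal axis) of Csf2ra-/- against wild type, averaged over treatment, for the 39 other eicosanoid genes tested (vertical axis, coloured by role); filled points have an adjusted p under 0.05 over all genes. The filled points right of 0 are Cbr3, Ptgr1 and Akr1b3, and the 6 filled points left of 0 include 4 receptors.

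By the correlation of log2 levels over the 24 libraries, given as a description because the libraries share groups and depth, the genes most like Hpgds among 9096 were Igf1, Lpxn and Slc37a2 (Pearson's r 0.80 to 0.82). Those most like Ptgs2 were Trem1, Lsg1 and Olr1 (0.80 to 0.82), and those most like Alox15 Mxd1, Pde2a and Hbp1 (0.89 to 0.91). Lta4h was most like Tm7sf3, Rhno1 and Cdca3 (0.91 to 0.95), Alox5 like Rsu1, Def8 and Cbfa2t3 (0.93 to 0.95), and Ltc4s like Isoc2a, Hbb-bt and Psmb5 (0.91 to 0.92). Alox5ap was most like S100a10, Clic1 and Lst1 (0.89 to 0.91), Pla2g4a like Plek, Azin1 and Map2k4 (0.87 to 0.91), and Ptgs1 like Lrrk1, Eps8 and Plxdc2 (0.76 to 0.81). Within the set, the highest correlation was between Alox5 and Ltc4s (r = 0.71) and the lowest between Alox15 and Ltc4s (r = -0.82).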

How the data were processed

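Each deposited file lists Ensembl genes with the raw read counts of 1 library, per the file headers. According to the submitters' processing notes, the authors used STAR and featureCounts with GRCm38.p6, and no versions are given there. Symbols, coordinates and exon lengths came from GENCODE mouse release 21. Groups came from the labels, and replicate numbers follow the order of the deposit, so they were not used to pair libraries. Counts were scaled by TMM, genes were filtered with filterByExpr, and edgeR 4.0.16 fitted the 8 groups of 24 libraries jointly (R 4.3.3, robust quasi-likelihood test, Benjamini-Hochberg adjustment over all genes tested), with 17 contrasts and an overall test; the fit was tested on simulated data. Alternatives were size factors, DESeq2 1.42.0, limma-voom 3.58.1, 2 other low-count filters, other sets of libraries, a Y-linked covariate and leaving out each library. Pairs of libraries of a group differed by more than sampling noise (chi-square per gene 3.49 to 66.3, against 1 for noise). All 9 genes are named; other pathway genes are named where called in at least 1 contrast, and the 3 most alike genes needed a mean of at least 5 CPM. The genes and lists were chosen with earlier results of these data known.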

Additional observations from a re-analysis of the deposited data

How the results depend on the processing

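No paired analysis was possible because the labels give no replicate numbers that pair libraries across groups. Some libraries of the same deposit order were nonetheless alike: the Y-linked sums of those labelled Irf5-/- were 178, 12.1 and 39.3 CPM in the untreated group and 163, 13.2 and 44.0 CPM in the GM-CSF group. Whether they share an animal or culture was not tested. Of the 9 genes' results, the 29 with an unadjusted p under 0.05 in the fit to all 24 libraries were followed over 517 alternative values. Among these values, 59 ended a call and 10 made one. None changed sign, but picking results by p and refitting largely the same libraries made such a change unlikely. The number of the 9 genes called for GM-CSF in wild type was 0, and 1 with DESeq2, limma-voom or only the groups compared. With IL-10 present it was 1, and 0 with at least 5 CPM in 3 libraries, which leaves Hpgds untested. Averaged over IL-10 it was 2, and 1 with no filter, with at least 5 CPM in 3 libraries or with the Y-linked covariate. For Csf2ra-/- against wild type it was 4 untreated, and 1 with only the groups compared; with GM-CSF it was 1, 2 with DESeq2, and 0 with no filter, without the libraries labelled Irf5-/- or with only the groups compared. Against wild type, the libraries labelled Irf5-/- gave 0, and 1 untreated with only the groups compared and averaged with DESeq2. Chosen after seeing the data, the fit to libraries with a Y-linked sum over 100 CPM gave 0 in all comparisons that had calls. Also chosen so, leaving out wild-type GM-CSF replicate 2 and replicate 3 with both cytokines gave 0 with IL-10 present, 1 averaged and 0 for Csf2ra-/- with GM-CSF, and leaving out both Csf2ra-/- replicates 3 gave 0 for the latter. Without each library in turn, counts were 0 to 1 for GM-CSF with IL-10, 1 to 3 averaged, 1 to 4 for Csf2ra-/- untreated, 0 to 1 with GM-CSF, 4 to 5 averaged, 0 to 1 for the libraries labelled Irf5-/- averaged and 3 to 6 overall. Hpgds rested on 3 to 70 counts per library and Ltc4s on 25 to 115.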

Other observations

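Pla2g7, which encodes platelet-activating factor acetylhydrolase, and the lipoxygenase Alox8 passed the overall test (adjusted p of 0.00539 and 0.0483, edgeR) and no contrast. Untreated wild-type libraries held 268, 319 and 342 CPM of Pla2g7, and GM-CSF-treated ones 250, 443 and 277 CPM. In IL-10 it was 482, 469 and 359 CPM, and in both cytokines 386, 484 and 639 CPM. The 6 libraries with IL-10 lay at 359 CPM or above, and 1 of the other 6 reached into that range. Csf2ra-/- libraries held 198 to 322 CPM. Alox8 was 2.24 to 5.08 CPM in the 6 wild-type libraries with IL-10 and 1.66 to 2.50 CPM in the 6 without.

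Ptgs1, the constitutive cyclooxygenase, was lowest in 3 of the 24 libraries, Csf2ra-/- untreated replicate 3 (70.2 CPM), Csf2ra-/- GM-CSF replicate 3 (73.6 CPM) and untreated replicate 1 of those labelled Irf5-/- (72.3 CPM), while the other 21 held 87.2 to 120 CPM.

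Of the 63 other pathway genes, 6 had no count in any library, among them the prostaglandin D2 receptor Ptgdr and the oxoglutarate receptor Oxgr1. Hpgd, the main enzyme that inactivates prostaglandins, had 9 counts over all 24 libraries, and Tbxas1, the thromboxane synthase, was the terminal prostanoid synthase with the highest median, at 177 CPM.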
